A study of Mus musculus with 8 samples.

Results

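The neuregulin and ErbB receptor genes were described in mouse heart ventricles of E14.5 embryos. They comprise 6 genes, the ligand genes Nrg1 and Hbegf and the receptor genes Egfr, Erbb2, Erbb3 and Erbb4. They were picked by symbol for their place in the pathway, with earlier results of these data known. All 6 were found among the 13869 genes of the deposited table. Polyadenylated RNA was sequenced from 4 libraries of Mib1 mutant ventricles and 4 libraries of wild-type (WT) ventricles. The mutants carried a floxed Mib1 allele and a Cre transgene under the cardiac troponin T promoter, which acts in cardiomyocytes, and the WT embryos were their siblings, with no further allele named. Per the series description, 16 mutant and 16 WT hearts were divided over these libraries, each of which is thus a pool of embryos. Whether different litters went into different pools is not stated, so the p-values measure only how far these pools spread, which may be technical.

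Neuregulin 1 is a growth factor that the endocardium releases onto the myocardium. It binds the receptor tyrosine kinase ERBB4, which pairs with ERBB2, a receptor with no known ligand of its own, and mice without Nrg1, Erbb2 or Erbb4 form almost no trabeculae. HBEGF, a membrane-anchored ligand that is cut free by metalloproteases, binds EGFR and ERBB4 and is needed for heart valve formation, while ERBB3, which binds neuregulin but has little kinase activity, acts in the cushion mesenchyme and in glia. Mib1 encodes the ubiquitin ligase that Notch ligands need in order to signal.

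Mib1 itself averaged 100 ± 5.33 CPM (recovered counts for every 1000000 in a library, after the authors' normalization) in the mutants and 161 ± 7.48 CPM in WT (SD, n = 4), and the groups did not overlap. Depth ran from 6597943 to 11506082 recovered counts in the mutants and from 6307634 to 8964058 in WT, mutant replicate 1 being the deepest. Of 13740 genes tested, 308 (2.24%) were called, that is, had an adjusted p under 0.05 by limma with Benjamini-Hochberg adjustment over all genes tested.

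None of the 6 neuregulin and ErbB genes was called, against that background of 2.24%. Erbb4 had the largest difference, 25.0% higher in the mutants, and an adjusted p of 0.0926. The ligands Nrg1 and Hbegf and the receptor Egfr were 20.5%, 17.5% and 17.8% above WT with intervals that included 0, and Erbb2 and Erbb3 were 5.8% and 2.42% below WT, likewise. At an unadjusted p under 0.05, 1 of the 6 passed (Erbb4), where 14.8% of all genes tested did, and limma with voom precision weights also called 0 of the 6, against 2.3% of all genes tested. The 6 genes had a median log2 difference of 0.23, mutant minus WT, beside 0.00 for all genes tested. In none of the 6 were the mutant and WT libraries fully separated, which was the case for 8.89% of all genes tested.

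**Figure D1:**
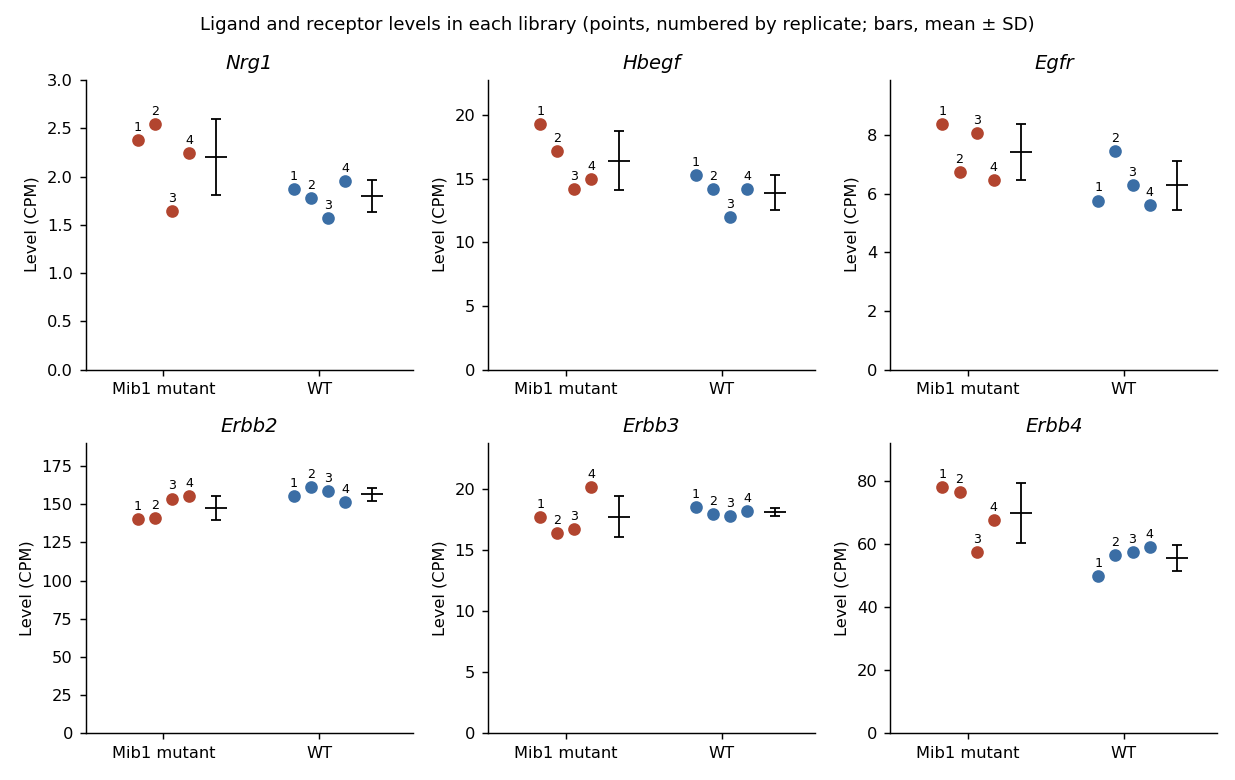
Level of each ligand and receptor gene in CPM (y axis, from 0) in the 4 Mib1 mutant and 4 WT libraries; points are libraries numbered by replicate, and the bar beside them is the mean ± SD. Erbb4 stood between 57.5 and 78.0 CPM in the mutants and between 49.7 and 58.9 CPM in WT, and the groups overlapped in every panel.

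Erbb4 (ENSMUSG00000062209), the neuregulin receptor of the ventricular myocardium, stood at 78.0, 76.6, 57.5 and 67.8 CPM in mutant replicates 1 to 4, against 49.7, 56.5, 57.5 and 58.9 CPM in WT replicates 1 to 4. Mutant replicates 1, 2 and 4 lay above every WT library, and mutant replicate 3 lay within the WT range. The log2 difference, mutant minus WT, was 0.32 ± 0.09 (SE), with a 95% interval of 0.13 to 0.52 and an adjusted p of 0.0926 (limma). The exact two-sided permutation p was 0.0857, where 4 against 4 libraries allow no p below 0.0286. Without mutant replicate 3, limma gave a log2 difference of 0.41 and an adjusted p of 0.00919. Leaving out any other single library left Erbb4 uncalled, at adjusted p values from 0.116 to 0.27 (limma). Without mutant replicate 3 the calls over all genes tested also went from 308 to 477. The Erbb4 levels came from 384 to 885 counts in the mutant libraries and from 345 to 509 in the WT libraries.

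Erbb2 (ENSMUSG00000062312), the partner receptor, had the highest level of the 6 genes. It stood at 141, 141, 154 and 155 CPM in mutant replicates 1 to 4, against 155, 161, 159 and 151 CPM in WT replicates 1 to 4. Mutant replicates 1 and 2 lay below every WT library, and mutant replicates 3 and 4 lay within the WT range. The log2 difference was −0.09 ± 0.05 (SE), with a 95% interval of −0.20 to 0.03 and an adjusted p of 0.477 (limma). In mutant replicates 1 and 2, Erbb4 lay above and Erbb2 below every WT library. In mutant replicate 4 Erbb4 alone lay outside the WT range, and neither gene was called.

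The stretches of genome upstream of Erbb4 and Erbb2 are shown because these genes together encode the neuregulin receptor of the myocardium and differed in sign. Each is the 250 bases before the RefSeq transcript start in GRCm38.p6, on the gene's strand, at chr1:69108060-69108309 (minus strand) for Erbb4 and chr11:98412234-98412483 (plus strand) for Erbb2, and capitals mark the motif matches described next.
Erbb4: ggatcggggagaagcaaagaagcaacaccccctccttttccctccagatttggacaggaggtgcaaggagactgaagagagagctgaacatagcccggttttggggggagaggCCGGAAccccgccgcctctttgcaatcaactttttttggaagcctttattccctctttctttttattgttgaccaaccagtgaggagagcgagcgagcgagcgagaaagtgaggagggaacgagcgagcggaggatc
Erbb2: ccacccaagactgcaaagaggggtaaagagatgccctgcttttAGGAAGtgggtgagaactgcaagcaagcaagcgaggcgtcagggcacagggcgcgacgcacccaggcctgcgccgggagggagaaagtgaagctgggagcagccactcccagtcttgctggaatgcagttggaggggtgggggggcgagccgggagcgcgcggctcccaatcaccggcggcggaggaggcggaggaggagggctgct

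Of the 6 genes, 3 (Erbb4, Erbb2 and Egfr) matched an entry of the RefSeq promoter table by symbol. Six-letter motifs were searched on both strands, after the expression values had been seen, and none of the motifs overlapped another in these windows. The ETS factor core was searched as CCGGAA, which 12% of 32851 promoter windows of the same length hold, and as AGGAAG, held by 29.5%. The Erbb4 window holds CCGGAA once, starting at position −137 from the transcript start, and the Erbb2 window holds AGGAAG once, at position −207. TGGGAA, the core read by the Notch effector RBPJ (21.6% of windows), the E-box CACGTG (6.02%), the GC box GGGCGG (32.7%) and the TATA box TATAAA (12.4%) are not among the letters of either window. The Erbb2 window is richer in G and C, at 66.0%, than that of Erbb4, at 54.0%. The Egfr window, not printed here, holds CCGGAA at position −119, AGGAAG at −81 and GGGCGG at −9, each on the opposite strand.

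Erbb3 (ENSMUSG00000018166) stood at 17.7, 16.4, 16.8 and 20.2 CPM in mutant replicates 1 to 4, against 18.6, 18, 17.8 and 18.2 CPM in WT replicates 1 to 4. The WT libraries lay close together and the mutant libraries fell on either side of them. The log2 difference was −0.04 ± 0.09 (SE), with a 95% interval of −0.23 to 0.16 and an adjusted p of 0.904 (limma). Without mutant replicate 2 the sign turned, at a log2 difference of 0.00114. The cushion mesenchyme and fibroblast markers held 0 calls among 8, where 2.24% of all genes tested were called. Of these 8 markers 7 lay below 0, with a median log2 difference of −0.04, where 6833 of all 13740 genes tested lay below 0. Their part in the level of Erbb3 was not tested.

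Egfr (ENSMUSG00000020122), the receptor of EGF, TGF alpha and HBEGF, had the lowest receptor level in CPM. It stood at 8.38, 6.74, 8.08 and 6.48 CPM in mutant replicates 1 to 4, against 5.76, 7.44, 6.3 and 5.62 CPM in WT replicates 1 to 4. Mutant replicates 1 and 3 lay above every WT library, and WT replicate 2 lay above mutant replicates 2 and 4. The log2 difference was 0.24 ± 0.15 (SE), with a 95% interval of −0.08 to 0.55 and an adjusted p of 0.486 (limma), from 40 to 95 counts per library over the 8 libraries.

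Nrg1 (ENSMUSG00000062991) had the lowest level of the 6 genes, a mean log2 CPM of 1.03 over the 8 libraries. It stood at 2.38, 2.54, 1.65 and 2.24 CPM in mutant replicates 1 to 4, against 1.87, 1.78, 1.57 and 1.96 CPM in WT replicates 1 to 4. Mutant replicates 1, 2 and 4 lay above every WT library, and mutant replicate 3 lay among the WT libraries, the same division as for Erbb4. These values came from 11 to 27 counts in the mutants and 10 to 16 in WT, and the log2 difference of 0.27 ± 0.24 (SE) had a 95% interval of −0.24 to 0.78 and an adjusted p of 0.650 (limma).

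Hbegf (ENSMUSG00000024486) was the more abundant ligand. It stood at 19.3, 17.2, 14.2 and 14.9 CPM in mutant replicates 1 to 4, against 15.3, 14.2, 12 and 14.2 CPM in WT replicates 1 to 4. Mutant replicates 1 and 2 lay above every WT library, and mutant replicates 3 and 4 lay within the WT range. The log2 difference was 0.23 ± 0.12 (SE), with a 95% interval of −0.02 to 0.48 and an adjusted p of 0.379 (limma). Endocardial and endothelial cells, which express Nrg1 and Hbegf, had lower marker levels in the same mutant libraries, with 7 of 8 markers below 0 on the log2 scale. The cardiomyocyte markers and the cushion mesenchyme and fibroblast markers also had 7 of 8 below 0. Among all 13740 genes tested, 6833 lay below 0. Of the 8 endocardial and endothelial markers, 3 were called lower (Tek, Npr3 and Plvap), beside 1.25% of all genes tested. Their summed level was 968 to 1012 CPM in the mutants and 1129 to 1153 CPM in WT, over all 8 markers. In bulk tissue, fewer cells of a type and less RNA per cell cannot be told apart, and the part of these markers in the ligand levels was not tested.

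Set against transcript length, the ligands and receptors ordered as follows. Levels were divided by the length of the longest coding transcript in GENCODE M21, in kilobases. Erbb2 averaged 29.5 ± 1.59 CPM per kb in the mutants and 31.3 ± 0.859 in WT (SD, n = 4). Hbegf averaged 6.91 ± 0.971 CPM per kb in the mutants and 5.86 ± 0.585 in WT, and Erbb4 5.81 ± 0.788 in the mutants and 4.62 ± 0.339 in WT. The ranges of these genes overlapped in the mutants, at 5.99 to 8.13 CPM per kb for Hbegf and 4.77 to 6.48 for Erbb4. In WT they lay side by side without overlap, at 5.04 to 6.43 for Hbegf and 4.13 to 4.9 for Erbb4. Erbb3 came next at 2.95 ± 0.283 CPM per kb in the mutants and 3.02 ± 0.0569 in WT. Egfr averaged 0.727 ± 0.0929 in the mutants and 0.615 ± 0.0807 in WT, and Nrg1 was last at 0.407 ± 0.0723 in the mutants and 0.332 ± 0.0303 in WT. With the mean length of the coding transcripts in place of the longest, Erbb4 stood above Hbegf, at 8.07 against 6.91 CPM per kb in the mutants and 6.42 against 5.86 in WT, so the order of Erbb4 and Hbegf depended on the length used.

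**Figure D2:**
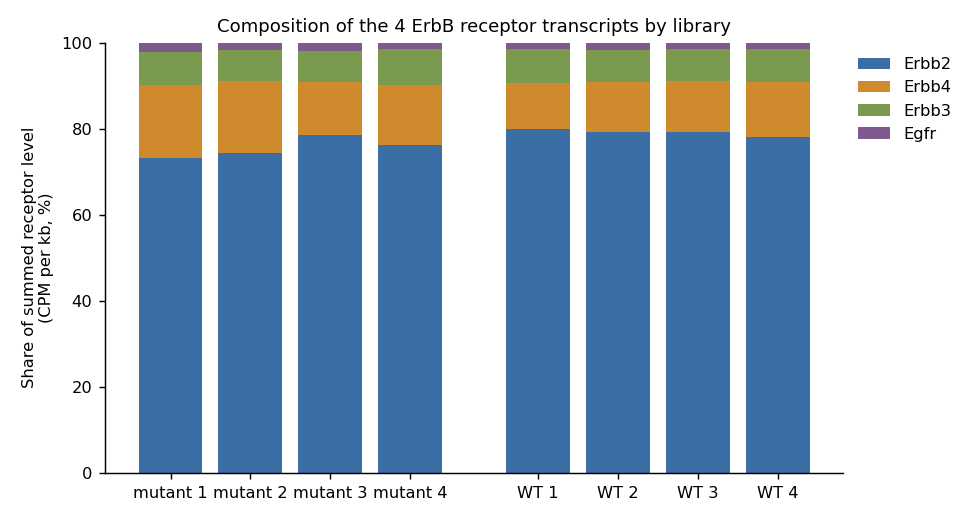
Share of each ErbB receptor gene in the summed level of the 4 receptors (y axis, percent, from CPM per kb of the longest coding transcript) in each Mib1 mutant and WT library. Erbb2 made up 73.2% to 78.6% in the mutants and 78.1% to 79.9% in WT, and Erbb4 12.2% to 16.9% in the mutants and 10.7% to 12.7% in WT.

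Among the receptors, Erbb4 had a share above every WT library in 3 of the 4 mutant libraries. Erbb4 made up 16.9%, 16.8%, 12.2% and 13.9% of the summed receptor level per kb in mutant replicates 1 to 4, against 10.7%, 11.6%, 11.9% and 12.7% in WT replicates 1 to 4. Mutant replicate 3 again lay within the WT range. Erbb2 exceeded Erbb4 by a ratio of 5.17 ± 0.995 in the mutants and 6.79 ± 0.552 in WT (SD, n = 4). With the mean coding transcript length this ratio was 3.73 in the mutants and 4.89 in WT. Egfr accounted for 1.87% ± 0.265 in the mutants and 1.55% ± 0.168 in WT, and Erbb3 for 7.57% ± 0.522 in the mutants and 7.64% ± 0.309 in WT. No test was made of these ratios, because they follow from the single levels.

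Ligand and receptor levels were also set against each other within each library. The ratio of Erbb4 to Nrg1, per kb, was 14.4 ± 1.03 in the mutants and 14.1 ± 1.86 in WT (SD, n = 4), and that of Hbegf to Egfr was 9.58 ± 1.43 in the mutants and 9.65 ± 1.7 in WT. Hbegf exceeded Nrg1 by a ratio of 17.2 ± 2.25 in the mutants and 17.7 ± 0.929 in WT. In each of these ratios the group means differed by less than the SD of either group. The size of the ratios depended on the length used. With the mean coding transcript length, Erbb4 to Nrg1 was 8.62 in the mutants and 8.41 in WT. Hbegf to Egfr was then 4.26 in the mutants and 4.29 in WT, and Hbegf to Nrg1 7.41 in the mutants and 7.62 in WT. The log2 differences of the ligands, 0.27 for Nrg1 and 0.23 for Hbegf, lay between those of the receptors, −0.09 for Erbb2 to 0.32 for Erbb4.

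The libraries differed in how long and short transcripts were represented, and Erbb4, at 12037 bases, is among the longest. The 805 tested genes with a transcript of 8000 bases or more had a median deviation from their own mean of 0.09, 0.06, −0.08 and 0.06 on the log2 scale in mutant replicates 1 to 4, against −0.02, −0.03, −0.06 and 0.02 in WT replicates 1 to 4. Erbb4 deviated by 0.33, 0.30, −0.11 and 0.13 in mutant replicates 1 to 4, against −0.32, −0.14, −0.11 and −0.08 in WT replicates 1 to 4. Mutant replicate 3 was the lowest mutant library in each of these series. Erbb2, at 5012 bases, deviated by −0.11, −0.11, 0.02 and 0.03 in mutant replicates 1 to 4, where the 4410 genes of 4000 to under 8000 bases had medians of 0.04, 0.02, −0.02 and 0.01. With the trend removed as described next, its log2 difference was −0.11, against −0.09 before. The median log2 difference, mutant minus WT, was 0.05 for the genes of 8000 bases or more and −0.06 for the 2720 genes under 2000 bases. After the trend with transcript length was removed from each library, an alternative chosen after seeing the data, Erbb4 had a log2 difference of 0.26 ± 0.07 (SE) and an adjusted p of 0.083 (limma). The log2 difference of Hbegf was then 0.24, against 0.23 before.

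**Figure D3:**
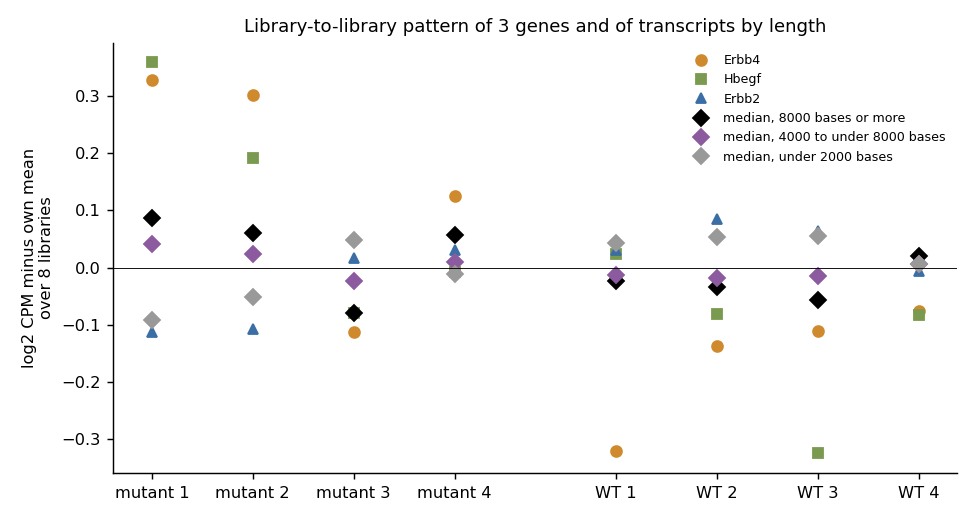
Deviation of log2 CPM from the gene's own mean over 8 libraries (y axis) for Erbb4, Hbegf and Erbb2, with the median deviation of genes whose longest transcript has 8000 bases or more, 4000 to under 8000 bases or under 2000 bases, in each Mib1 mutant and WT library. Erbb4 reached 0.33 in mutant replicate 1 and −0.11 in mutant replicate 3, where the long transcripts had medians of 0.09 and −0.08.

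Around the ligands and receptors, 72 genes of 7 pathway lists were tested (the 6 genes included), of which 2 rose and 0 fell, beside 0.99% of all genes tested called higher and 1.25% called lower. These were Adam19 and Etv5. Over the 66 pathway genes other than the 6, 48 lay above 0 and 18 below, where 6907 of all 13740 genes tested lay above 0. The median log2 difference of the 66 was 0.06, beside 0.00 for all genes tested. For genes of 4000 to under 8000 bases that median was 0.02, and for genes of 8000 bases or more 0.05. The part of transcript length in the differences of the 66 was not tested. Of the 66, 12 had an unadjusted p under 0.05, where 14.8% of all genes tested did.

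Adam19 (ENSMUSG00000011256) encodes a membrane metalloprotease, also called meltrin beta, that can cut neuregulin 1 from the cell surface and is needed in the mouse for septation of the heart. It stood at 183, 198, 204 and 203 CPM in mutant replicates 1 to 4, against 169, 167, 169 and 174 CPM in WT replicates 1 to 4. Every mutant library lay above every WT library. Adam19 rose by 0.21 ± 0.05 on the log2 scale (SE; limma adjusted p = 0.0376), and it was the only gene called among the 9 sheddases and their regulators. Of the 9, 4 lay above 0 and 5 below, with a median log2 difference of −0.06. Adam10 and Adam17, which also release ErbB ligands, stood at 0.12 and 0.05. Without being called, Adam9 stood at 0.15 and Rhbdf2, which encodes an inactive rhomboid protein that carries ADAM17 to the cell surface, at −0.21 (adjusted p = 0.251 and 0.305, limma). The Rhbdf2 libraries did not overlap between the groups, as for 8.89% of all genes tested. Among the other uncalled pathway genes the same held for Etv4, Errfi1 and Sos1. Leaving out any single library other than mutant replicate 1 ended the call of Adam19, with adjusted p values up to 0.13 (limma). Removal of the length trend also ended it, at a log2 difference of 0.18 (adjusted p = 0.0931, limma).

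Etv5 (ENSMUSG00000013089) encodes an ETS transcription factor whose gene responds to signalling through the Ras and MAPK cascade. It stood at 33.3, 42.6, 33.5 and 36.6 CPM in mutant replicates 1 to 4, against 24.8, 24.4, 23.8 and 30.2 CPM in WT replicates 1 to 4. Every mutant library lay above every WT library, and WT replicate 4 was the nearest of them. Etv5 rose by 0.50 ± 0.10 on the log2 scale (SE; limma adjusted p = 0.0166), a rise of 1.41-fold, and leaving out mutant replicate 2 or WT replicate 1, 2 or 3 ended the call, with adjusted p values up to 0.065. Its paralogue Etv4 stood at a log2 difference of 0.42 ± 0.13 (SE) without being called (adjusted p = 0.117, limma), and Etv1 at −0.05. Of the 15 genes of MAPK feedback and response, 10 lay above 0 and 5 below, from −0.08 for Dusp6 to 0.50 for Etv5, with a median of 0.04. Phlda1 stood at 0.35, Egr1 at 0.28 and Spry4 at 0.20, without being called (adjusted p = 0.207, 0.369 and 0.374, limma), and Spry2 and Ccnd1 at 0.04 and −0.01.

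**Figure D4:**
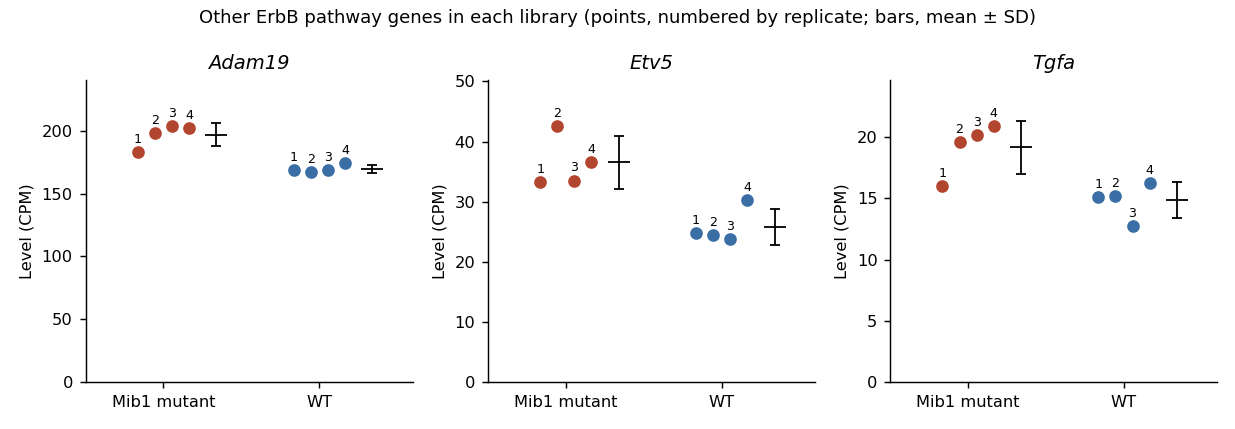
Levels of Adam19, Etv5 and Tgfa in CPM (y axis, from 0) in the 4 Mib1 mutant and 4 WT libraries; points are libraries numbered by replicate, and the bar beside them is the mean ± SD. Adam19 stood at 183 to 204 CPM in the mutants and 167 to 174 CPM in WT and Etv5 at 33.3 to 42.6 CPM in the mutants and 23.8 to 30.2 CPM in WT, without overlap, while Tgfa overlapped.

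Of 11 ErbB ligand genes, 6 were tested and none was called, where 2.24% of all genes tested were. Nrg2, Nrg3, Areg, Ereg and Epgn were not found by symbol in the deposited table. Tgfa, which encodes transforming growth factor alpha, a ligand of EGFR, had the smallest p of the 6 tested. It stood at 16.0, 19.6, 20.2 and 20.9 CPM in mutant replicates 1 to 4, against 15.1, 15.2, 12.8 and 16.3 CPM in WT replicates 1 to 4. Mutant replicate 1 lay within the WT range and the other 3 above it. Tgfa differed by 0.37 ± 0.11 on the log2 scale (SE, limma adjusted p = 0.111), and by 0.45 without mutant replicate 1 (adjusted p = 0.039). With any other single library left out Tgfa was not called, at adjusted p values from 0.115 to 0.296 (limma). Egf and Btc stood at 0.30 and 0.25, with WT means of 2.65 and 3.6 CPM, and Nrg4 at −0.36 with a WT mean of 2 CPM.

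Among 12 genes of receptor inhibition and turnover none was called, where 2.24% of all genes tested were. The smallest p belonged to Cblb, a ubiquitin ligase gene that targets activated receptors, at 0.23 ± 0.07 (SE; limma adjusted p = 0.145), and Errfi1, which encodes the feedback inhibitor MIG6, stood at 0.27. Of the 12, 11 lay above 0, with a median of 0.11, where 6907 of all 13740 genes tested lay above 0. The part of transcript length in this count was not tested. None of 15 adaptor and Ras-MAPK genes was called either, beside the same 2.24%. Braf, a kinase gene of that cascade, stood at 0.28 ± 0.08 (SE, limma adjusted p = 0.112), and at 0.34 without mutant replicate 3 (adjusted p = 0.0312). With any other single library left out Braf was not called, at adjusted p values from 0.113 to 0.277 (limma). Its longest transcript has 9728 bases, and with the length trend removed it stood at 0.23 (adjusted p = 0.109). None of 11 genes of the PI3K, Akt, Src and FAK list was called, likewise beside 2.24%, and the list median was 0.05.

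**Figure D5:**
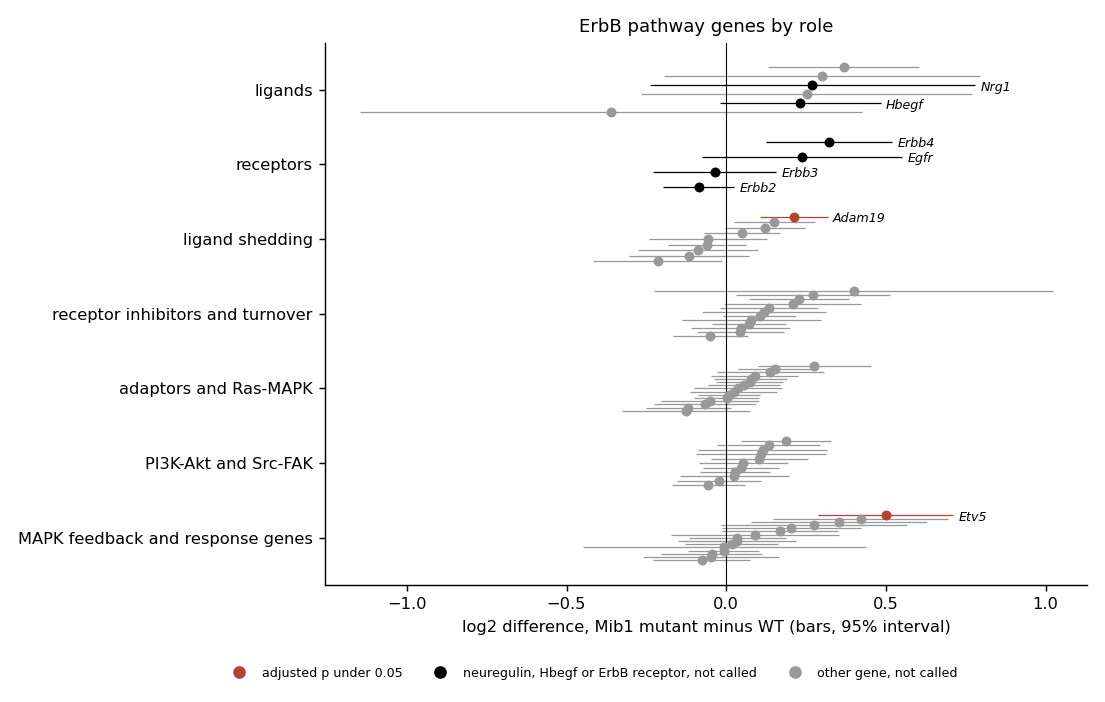
log2 difference, Mib1 mutant minus WT (x axis, bars 95% intervals), of the 72 tested ErbB pathway genes in 7 lists by role (y axis, 1 point per gene). Adam19 at 0.21 and Etv5 at 0.50 were called, and the 6 ligands and receptors lay between −0.09 for Erbb2 and 0.32 for Erbb4 without being called.

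Markers of the cell types that carry these receptors, or that occur beside them, were also compared. Of 8 cardiomyocyte markers 0 were called, where 2.24% of all genes tested were. Of these 8, 7 lay below 0, where 6833 of all 13740 genes tested did. Their median log2 difference was −0.11 and their summed level 38653 to 41408 CPM in the mutants and 40407 to 44500 CPM in WT. Tnnt2, the gene whose promoter drives the Cre, stood at −0.21 (adjusted p = 0.0658, limma). The 7 epicardial markers held 0 calls, beside the same 2.24% of all genes tested, with a median of 0.02. Of 8 macrophage markers 3 were called lower (Lyz2, Tyrobp and C1qc), beside 1.25% of all genes tested, with a median of −0.52. The part of these differences in the levels of Erbb2, Erbb4 and Egfr was not tested. Genes under 2000 bases had a median log2 difference of −0.06, and genes of 8000 bases or more one of 0.05. The part of transcript length in the marker differences was not tested either.

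The genes whose course over the 8 libraries was most like that of each member were listed by the root mean square difference of centred log2 CPM, among 10715 genes with a mean of at least 5 CPM. Zim1 was nearest to Erbb4 at 0.04, followed by Phf20l1 and Lgr4. The nearest to Nrg1 were Zfp729b at 0.07, Rnf170 and Dbt, and the nearest to Hbegf Rab33b at 0.06, Ghr and Depdc1a. Dclk1 was nearest to Egfr at 0.05, with Nemp2 and Abhd10 after it. Erbb2 was most like Pfdn5 at 0.02, Zbtb11 and Urm1, and Erbb3 most like Nol4l at 0.03, Chd2 and Gak. Of these 18 genes none was called, and Zim1 and Lgr4, at log2 differences of 0.34 and 0.25 and adjusted p values of 0.0724 and 0.0708 (limma), came closest.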

How the data were processed

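RNA from 4 Mib1 mutant and 4 WT pools of ventricles was read from 1 end, per the labels' protocols. The submitters' processing notes name cutadapt 1.2.1, RSEM 1.16, Bowtie2 0.12.7 (as written there), limma, edgeR and build mm9, without their roles. The gene filter and strand setting are not given in the sources used here. The deposited table is named for normalized counts, but tested on its values the deposited unit is a score: log2 CPM with a prior of 0.5 counts, times a constant per library that makes each column sum to 1000000. Each column was divided by its constant, the distance between its lowest distinct values over the log2 of 3. All values (100%) then came back as whole counts within 0.001. CPM is the recovered count per 1000000 of the deposited normalized library size.

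Symbols came from GENCODE M21 (GRCm38) by Ensembl identifier, for 13428 of 13869 genes. The test was limma 3.58.1 (R 4.3.3, eBayes with trend) on log2 CPM, group being the only term, for the 13740 genes whose log2 CPM averaged 0 or more. Tests were two-sided, with Benjamini-Hochberg adjustment over all genes tested. No 2 libraries of a group agreed within sampling noise (chi-square per degree of freedom 1.95 to 9.44). The pipeline was tested on simulated data. Alternatives were other pseudocounts, filters, scalings, variance models, thresholds, the replicate number as a block and each library left out.

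The members, lists and tests were chosen with earlier results of these data known. Named were the 6 genes, every called pathway gene, the gene of smallest p in a list without calls, and the 3 genes nearest to each member with a mean of at least 5 CPM and no clone or predicted-gene name. Adam9, Adam10, Adam17, Rhbdf2, Etv4, Etv1, Dusp6, Phlda1, Egr1, Spry4, Spry2, Ccnd1, Errfi1, Sos1, Egf, Btc, Nrg4 and Tnnt2 were chosen after their values were seen. Some genes and 1 marker list are not reported here.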

Additional observations from a re-analysis of the deposited data

Results flagged for a closer look

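Etv5 in WT replicate 4 stood apart from the other WT libraries, at 30.2 CPM from 247 counts, against 23.8 to 24.8 CPM in the other 3. Its gap to the nearest of them, 0.843 of the range of the 4 libraries, was above Dixon's 95% critical value. It was the only such library in 26 groups of 4 looked at, and chance gives about 1 in 20.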

How the results depend on the processing

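Under the 13 or 14 settings that kept all libraries, each of the 6 genes kept its direction and none was called at an adjusted p under 0.05; Erbb4 ran from 0.26 to 0.34 on the log2 scale with adjusted p values of 0.0597 to 0.251, and with a threshold of 0.1 it alone was called (1 member, log2 difference 0.32). Nrg1 was not tested under the filter of 5 CPM. With a library left out, log2 differences ran from 0.27 to 0.41 for Erbb4 (called without mutant replicate 3), from −0.0979 to 0.00114 for Erbb3 (sign reversed without mutant replicate 2), from 0.20 to 0.40 for Nrg1, from 0.15 to 0.30 for Hbegf, from 0.18 to 0.32 for Egfr and from −0.11 to −0.06 for Erbb2. Members called then ran from 0 to 1, other pathway genes called from 0 to 3, and all genes called from 146 to 477 (64 to 208 higher, 81 to 269 lower). These counts were lowest without WT replicate 1 (146), 2 (147) or 3 (161) or mutant replicate 2 (183) and highest without mutant replicate 3 (477); the cause was not tested. eBayes without trend called 179 genes (70 higher, 109 lower) and 0 of the other pathway genes, and a threshold of 0.1 called 551 (252 higher, 299 lower). Other pathway genes called numbered 1 with the replicate block and 1 with the length trend removed, against 2.

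With the replicate number as a block, 240 genes were called against 308, Erbb4 had an adjusted p of 0.138 and Adam19 lost its call (adjusted p = 0.0806). Libraries sharing a number correlated at −0.038 to 0.1 after removal of the group means, which gives no ground to pair the libraries. With the mean coding transcript length, levels were 0.944 CPM per kb in mutants and 0.769 in WT for Nrg1, 8.07 and 6.42 for Erbb4, and 1.63 and 1.38 for Egfr. Among the 6 genes Nrg1 had the fewest counts, 10 to 27 per library.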
